A study of Homo sapiens with 16 samples.

Results

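The human mitochondrial genome encodes a small set of proteins of the respiratory chain, and their transcripts were followed here through RNA-seq of 16 libraries labelled KG-1, an established human acute myeloid leukemia (AML) cell line of myeloblast-like suspension cells. The genes were all those in the count table whose GENCODE release 44 symbol starts with MT-, which gave 13 genes of 43836 in the table. All 13 are protein-coding genes of the mitochondrial chromosome. The annotation also lists 22 MT- transfer RNA genes and 2 MT- ribosomal RNA genes, which were not analysed here. The libraries fall into 8 groups of 2, which the study's methods call biological replicates. Control cells, transduced with a non-target shRNA vector, received DMSO (0.3%, 48 h), MK-2206 (30 μM, 24 h), STL427944 (50 μM, 48 h), AraC (0.75 μM, 48 h) or venetoclax (100 nM, 48 h). Cells transduced with shRNA against FOXM1 (shFOXM1) received DMSO, AraC or venetoclax at the same doses for 48 h. Both kinds of cells had been selected with puromycin at 4 μg/mL, and the knockdown is stable, by lentiviral shRNA. MK-2206 is an allosteric inhibitor of AKT, STL427944 a compound described as a FOXM1 suppressor, AraC (cytarabine) a nucleoside analogue that blocks DNA synthesis, and venetoclax an inhibitor of BCL2. The MK-2206 libraries differ from the DMSO libraries in treatment time as well as in drug, so drug and time cannot be told apart. Whether the 2 libraries of a group came from separate transductions is not given in the sources used here. The p-values take in no spread beyond that between the libraries compared. In 8 of the 12 comparisons they use the trend of that spread over all genes in place of each gene's own.

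Total counts ran from 7351755 to 21362546 per library, and the 2 lowest totals belong to MK-2206. Despite this, MK-2206 libraries 1 and 2 had the most genes with a count, 21430 and 24957, against 18674 to 20568 in the other 14. How this bears on the mitochondrial share and on the values over all genes was not tested. FOXM1, the targeted gene, had 140.0 and 138.2 CPM (CPM, the usual scaled read count, are here relative to the TMM-adjusted library total) in control cells with DMSO and 48.8 and 81.8 CPM in shFOXM1 cells with DMSO. Under AraC it had 180.8 and 156.1 CPM in control cells and 121.3 and 113.8 CPM in shFOXM1 cells, and under venetoclax 121.1 and 126.8 against 50.6 and 57.0 CPM. The shFOXM1 libraries were lower within each treatment, without overlap, but the difference under AraC was under 2-fold (log2 fold change -0.56). After MK-2206, FOXM1 had 21.7 and 19.8 CPM. The 8 libraries of MK-2206 and shFOXM1 stood apart from the other 8 in a defining marker of these cells: CD34, a surface marker of immature blood cells, had 12483 to 28951 counts in the 8 control libraries without MK-2206, 7 and 18 counts after MK-2206 and 0 to 4 counts in the 6 shFOXM1 libraries. The summed CPM of 8 myeloblast markers was 2179 to 3065 in those control libraries, 472 and 677 after MK-2206 and 2691 to 11648 in shFOXM1 cells. Markers of T cells, B cells, erythroid, epithelial and fibroblast cells reached at most 13.5 CPM per list in any library. CD34, which KG-1 cells are known to carry, was thus at or near 0 in 8 libraries labelled KG-1. Whether these 8 hold the same cells as the other 8 was not tested, so each comparison of MK-2206 with DMSO or of shFOXM1 with control cells is also one of libraries without and with this marker, and this cannot be told apart from the treatment or the knockdown.

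Human mitochondrial DNA is a circle that is transcribed from both strands into long precursor RNAs. The nuclear-encoded RNA polymerase POLRMT starts these precursors with the factors TFAM and TFB2M, and the transfer RNAs that lie between most of the messages are cut out to release them. The messages encode core subunits of complex I (the ND genes), complex III (MT-CYB), complex IV or cytochrome c oxidase (the CO genes) and complex V or ATP synthase (the ATP genes). Messages of one strand begin in one precursor, and their levels differ through processing and stability. In leukemic blasts, oxidative phosphorylation through these complexes is a known source of energy and a point at which venetoclax and AraC have been studied.

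The genes lie on the mitochondrial chromosome of hg38 between base 3307, where MT-ND1 starts, and base 15887, where MT-CYB ends. Of the 13, 12 are read from the plus strand of the reference, and MT-ND6 (bases 14149 to 14673) is the only one read from the minus strand. Precursors of the other strand run across MT-ND6 in antisense, and the sources used here do not say which strand setting the counting used, so its counts are uncertain to that extent. Transcription of both strands starts in the control region before MT-TF, the transfer RNA gene with the lowest position in the annotation. The 200 bases that end next to MT-TF are shown because all messages described here trace back to this region (chrM:377-576, hg38, plus strand):
upstream of MT-TF: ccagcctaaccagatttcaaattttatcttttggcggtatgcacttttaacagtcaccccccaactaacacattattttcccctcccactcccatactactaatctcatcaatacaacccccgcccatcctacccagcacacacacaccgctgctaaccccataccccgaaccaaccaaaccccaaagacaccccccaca

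Neighbouring messages share bases in places. MT-ATP8 (bases 8366 to 8572, 207 bases) and MT-ATP6 (bases 8527 to 9207) overlap by 46 bases and lie on a common transcript, MT-ND4L (bases 10470 to 10766) and MT-ND4 (bases 10760 to 12137) overlap by 7 bases on another, and MT-ATP6 shares 1 base with MT-CO3. The overlaps are shown with 15 bases on each side and the shared bases in capitals, since reads across them cannot be assigned to one gene (chrM:8512-8587 and chrM:10745-10781, hg38, plus strand):
MT-ATP8 and MT-ATP6: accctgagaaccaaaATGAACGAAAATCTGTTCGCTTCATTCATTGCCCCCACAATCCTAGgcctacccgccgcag
MT-ND4L and MT-ND4: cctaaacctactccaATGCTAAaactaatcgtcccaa
How the counting treated such reads is not given in the sources used here. The short MT-ATP8, with 212 to 2565 counts per library, shares the largest part of its length, and its values below are less certain than those of longer genes.

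The genes of complex IV had the highest levels per length, here CPM of the unscaled library total per kb of gene. MT-CO1, the catalytic subunit, had 4223 and 5041 in the control DMSO libraries and ranked first of the 13 genes in 15 of 16 libraries; the exception was a control venetoclax library, in which MT-CO3 was higher. MT-CO3 had 2686 and 4284 and MT-CO2, the subunit that takes electrons from cytochrome c, had 1390 and 2888 in the DMSO libraries. Of complex I, MT-ND4 (741 and 1482) and MT-ND1 (592 and 1266) were highest, and MT-CYB of complex III lay beside them with 919 and 1364. MT-ATP6, the membrane subunit of ATP synthase through which protons pass, had 591 and 1329. MT-ND3 (199 and 515), MT-ND5 (226 and 482) and MT-ND6 (376 and 432) were low and changed places between the 2 libraries, and MT-ATP8 (133 and 200) ranked last in all 16 libraries. The 2 DMSO libraries differed for most genes by more than neighbouring genes differed within a library, so the order in the middle of this range is not separated from the spread between libraries.

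**Figure D1:**
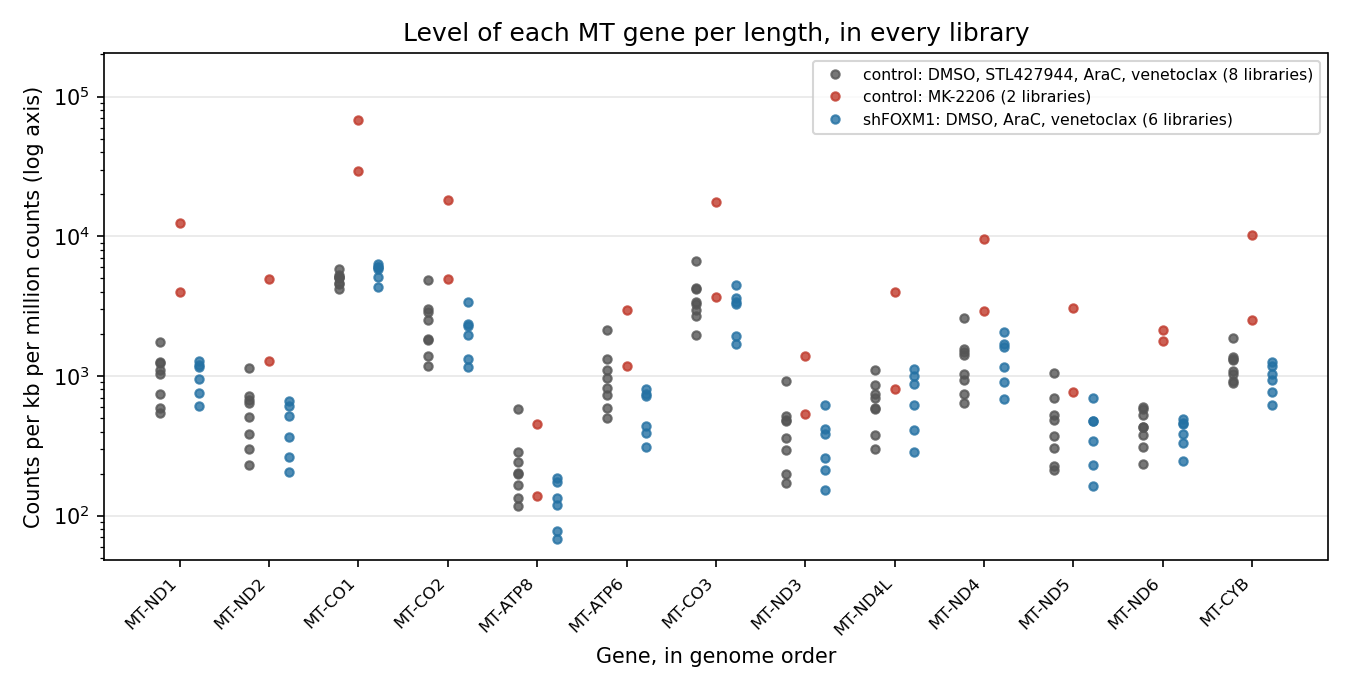
Level of each gene per length (CPM per kb, log axis) in each of the 16 libraries, with genes in genome order. MT-CO1 is highest in 15 libraries and MT-ATP8 lowest in all 16, and the exception is MT-CO1 in 1 control venetoclax library, where MT-CO3 is higher.

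Together the 13 genes took 1.37% and 2.11% of all counts in control cells with DMSO (mean 1.74% ± 0.521, SD, n = 2). After MK-2206 they took 6.68% and 18.4%, a mean 7.19 times that of DMSO (12.5% ± 8.27, SD, n = 2). In the other groups of control cells the share was 1.61% and 2.08% with STL427944, 1.67% and 2.06% with AraC, and 1.39% and 3.05% with venetoclax. In shFOXM1 cells it was 2.13% and 2.04% with DMSO, 1.32% and 1.91% with AraC, and 1.33% and 2.37% with venetoclax. Only the MK-2206 libraries lay outside the range of 1.32% to 3.05% that covered the other 14, and the 2 MK-2206 libraries differed from each other by 2.75 times. A 95% Wilson interval on these shares is at most 0.0236 percentage points to either side. It covers counting error only, which is small beside the spread between libraries. In all 5 groups whose labels carry the numbers 1 and 2, library 2 had the higher share, and library 2 was also the deeper one in all 5. Depth and other differences between these libraries therefore cannot be told apart. In the groups whose labels carry no number, the deeper library had the higher share with DMSO in control cells. The deeper library had the lower share with STL427944 and with DMSO in shFOXM1 cells. How depth bears on the share was not tested. The nuclear-retained RNAs MALAT1 and NEAT1 took 18186 CPM in control venetoclax library 1 and 6221 CPM in library 2, against 5999 to 26223 CPM over the 8 control libraries without MK-2206, and their relation to the mitochondrial share was not tested. A share of counts compares mitochondrial with all other RNA: more mitochondrial RNA per cell and less RNA from the nucleus per cell cannot be told apart in these bulk samples.

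**Figure D2:**
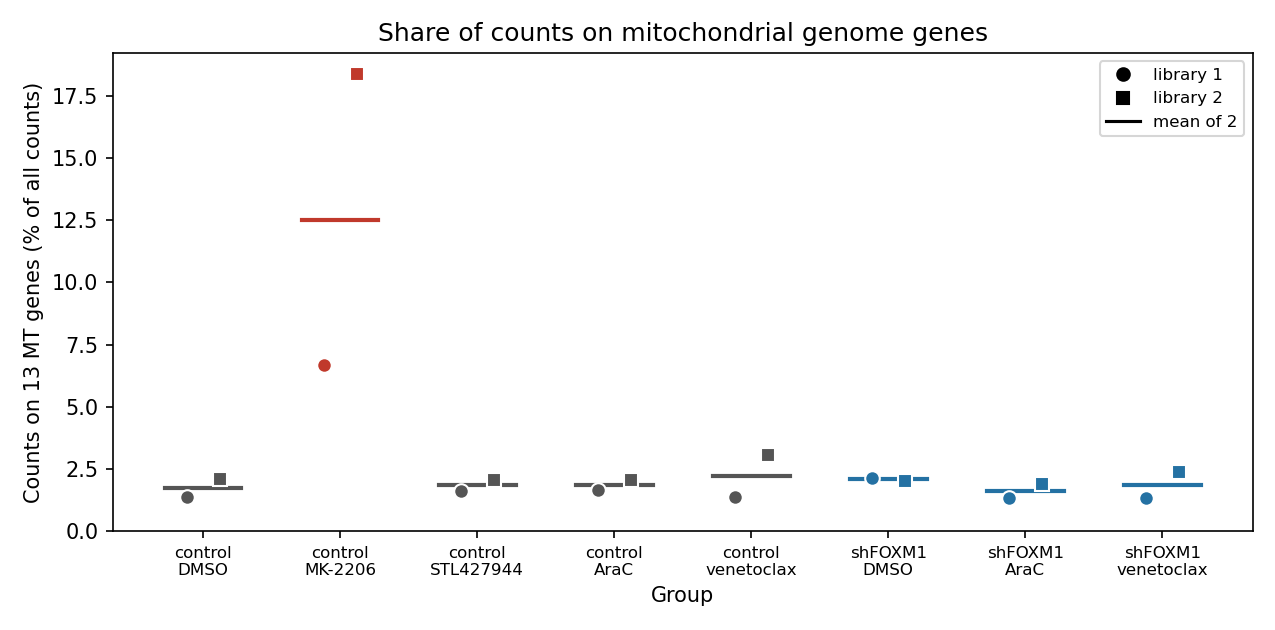
Share of all counts on the 13 mitochondrial genes in each library (y axis, %), by group. Circles and squares are libraries 1 and 2 and bars are their means; the MK-2206 libraries at 6.68% and 18.4% lie above the other 14.

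The estimates of all 13 genes were above 0 after MK-2206, though for some of them the groups overlapped. A gene was called changed at a 2-fold or larger difference and an adjusted p below 0.1 in edgeR's quasi-likelihood test over all genes with a count, and 13 of 13 mitochondrial genes were called higher, against 26.0% of all 28905 genes tested. Their median log2 fold change was 2.71, where that of all genes tested was 1.03. Scaled by total counts alone the pair was 2.43 and 0.82. The value over all genes takes in genes with few counts, and more genes had a count after MK-2206 than with DMSO. MT-CO1 had 6484 and 7926 CPM with DMSO and 47194 and 125709 CPM with MK-2206 (log2 fold change 3.66 ± 0.17, SE). MT-ND1, which sits at the base of the membrane arm of complex I, had 564 and 1234 CPM with DMSO and 4013 and 14147 CPM after MK-2206 (log2 fold change 3.41 ± 0.22). Both MK-2206 libraries were above both DMSO libraries for these genes, as they were for 9 of the 13, where 34.7% of all genes tested were separated in this way.

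The other complex I genes spread over a wide range. MT-ND2 changed by 2.95 ± 0.23 on the log2 scale, MT-ND4 by 2.76 ± 0.21, MT-ND5 by 2.72 ± 0.23, MT-ND4L by 2.23 ± 0.25 and MT-ND3 by 1.69 ± 0.26. MT-ND6, the message of the opposite strand, had 196.4 and 231.4 CPM with DMSO and 977 and 1334 CPM after MK-2206 (2.50 ± 0.25), and its 2 MK-2206 libraries were the closest to each other among the 13 genes. MT-CYB changed by 2.76 ± 0.21 and MT-CO2 by 2.71 ± 0.21. At the lower end were MT-CO3 (1.90 ± 0.20), MT-ATP6 (1.37 ± 0.23) and MT-ATP8 (1.11 ± 0.29). MT-ATP8 had 27.5 and 42.2 CPM with DMSO and 30.3 and 111.5 CPM after MK-2206, so its groups overlapped, and so did those of MT-ATP6, MT-CO3 and MT-ND4L.

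These calls, and the standard errors beside the log2 fold changes, rest on how much weight the spread between replicates gets. In the default fit the MK-2206 comparison, and 8 of the 12 comparisons in all, had an infinite prior df, which means that each gene was given the variance of the trend and its own spread over libraries had no weight; adjusted p ran from 1.08e-100 for MT-CO1 to 0.000373 for MT-ATP8. With the prior df estimated (3.04 in this comparison, an alternative chosen after seeing the data), 8 of 13 were called higher, against 28.0% of all genes, and adjusted p ran from 0.00187 for MT-ND6 to 0.227 for MT-ATP8. MT-CO1, MT-CO2, MT-CYB, MT-ND1, MT-ND2, MT-ND4, MT-ND5 and MT-ND6 were the 8. Without MK-2206 library 2, 4 of 13 were called, and the median log2 fold change was 1.22.

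**Figure D3:**
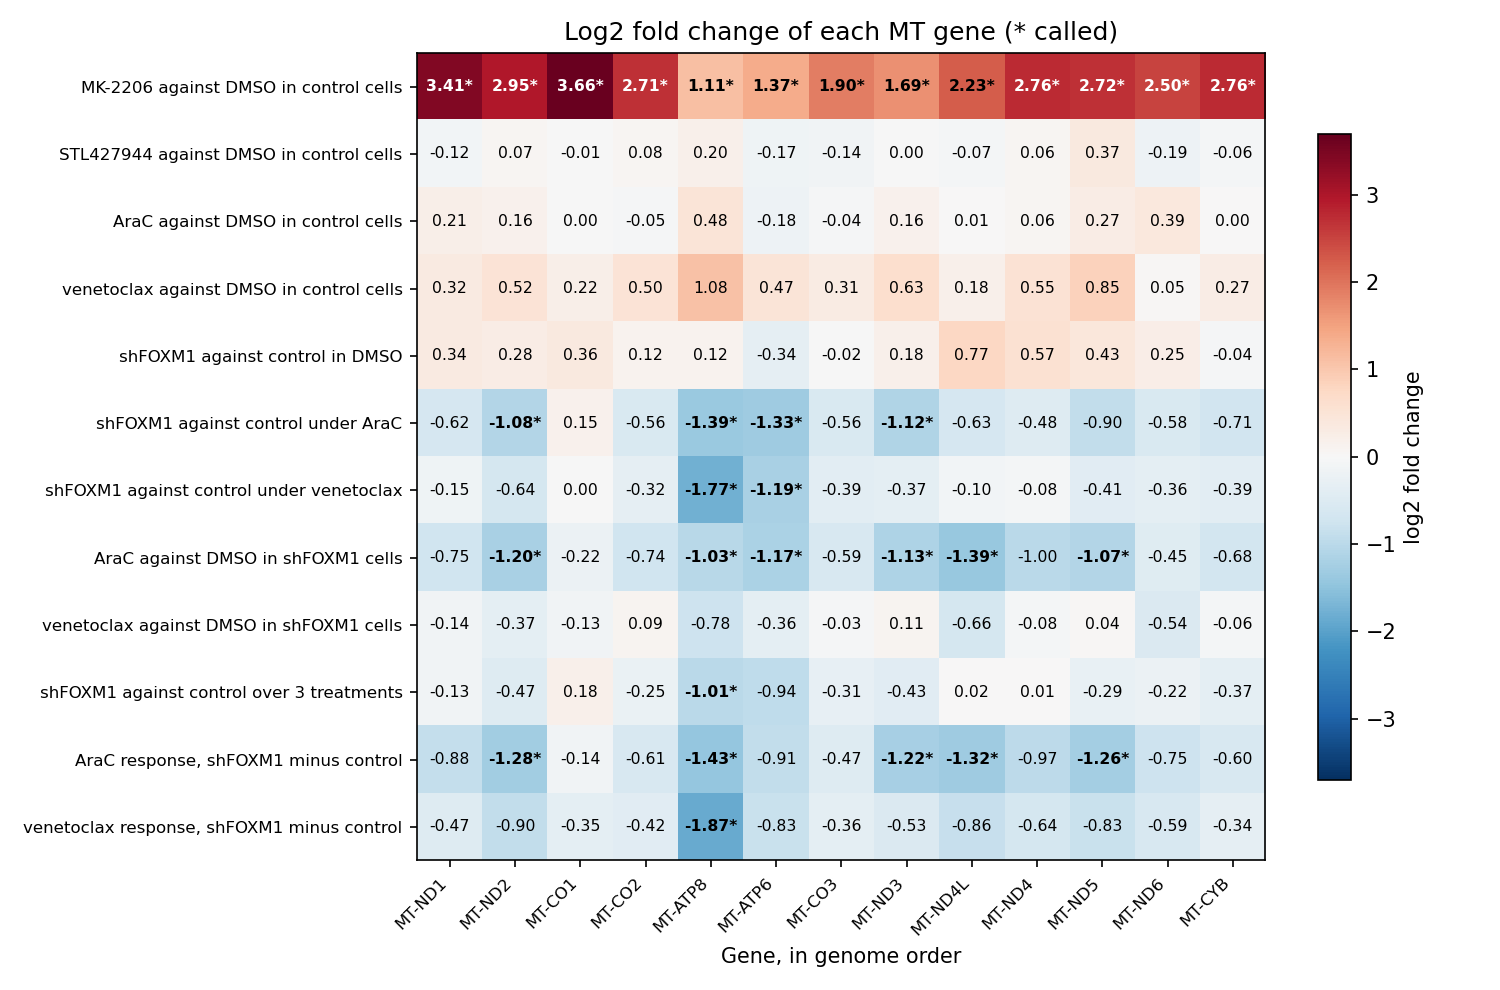
Log2 fold change of each of the 13 genes (columns, genome order) in each of the 12 comparisons (rows), in colour and number, with an asterisk where the gene was called by edgeR's default fit. MK-2206 is the only comparison with calls upwards, 13 of 13, and calls downwards are in comparisons that involve shFOXM1 cells.

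Within the mitochondrial counts the make-up also differed, a measure that no scaling between libraries touches. MT-CO1 made up 47.4% and 36.8% of the mitochondrial counts with DMSO and 67.3% and 57.3% after MK-2206. MT-CO3 made up 15.3% and 15.9% with DMSO and 4.31% and 7.54% after MK-2206, and MT-ATP6 made up 2.93% and 4.29% with DMSO and 1.21% and 1.09% after MK-2206. MT-ATP8 lay outside its DMSO values too, with 0.201% and 0.196% against 0.0432% and 0.0508%. In all, 1 gene (MT-CO1) had a higher share in both MK-2206 libraries than in both DMSO libraries, 8 genes had a lower one, and 4 overlapped (MT-ND1, MT-ND2, MT-ND5 and MT-ND6). No test was run on these shares, which add up to 100 in each library.

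Shares also differed between shFOXM1 and control cells. Of the 13 genes, 4 had a lower and 2 a higher share in shFOXM1 cells without overlap in DMSO. Under AraC 11 were lower and 1 higher, and under venetoclax 3 were lower and 0 higher. The shares of 3 genes were lower in each treatment. MT-CYB, the cytochrome b of complex III, had a narrow range of 6.98% to 7.63% in the 8 control libraries without MK-2206, and it was 5.35% to 6.64% in the 6 shFOXM1 libraries. MT-ATP6 ran from 2.43% to 4.76% in the former and from 1.57% to 2.57% in the latter, and MT-ATP8 from 0.174% to 0.394% and from 0.105% to 0.182%. The MT-CYB ranges did not overlap, and those of MT-ATP6 and MT-ATP8 met only at their ends. Within each of the 3 treatments, both shFOXM1 libraries were below both control libraries for all 3 genes. The MK-2206 libraries also lay below the 8 control libraries for all 3, with 4.28% and 6.31% for MT-CYB. The lower shares thus follow the split by CD34 and cannot be told apart from it.

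**Figure D4:**
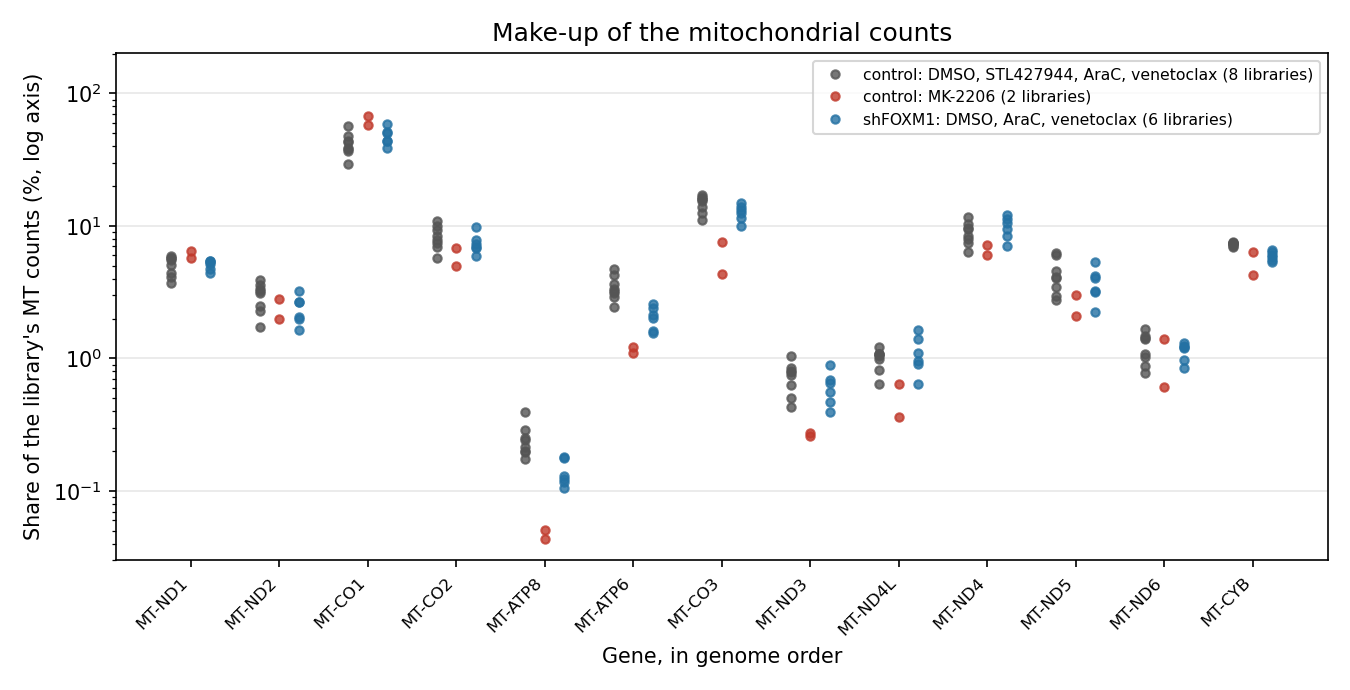
Share of each gene in the mitochondrial counts of a library (%, log axis), for the 8 control libraries without MK-2206, the 2 with MK-2206 and the 6 shFOXM1 libraries. MT-ATP8, MT-ATP6, MT-CO3 and MT-ND3 are lowest with MK-2206, and MT-CYB has a narrow range in control libraries (6.98% to 7.63%).

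The other 3 drugs left no called change in control cells. With STL427944, 0 of 13 genes were called, as were 0% of all genes tested; 0 of 13 had an unadjusted p below 0.05, DESeq2 called 0, and the log2 fold changes ran from -0.19 (MT-ND6) to 0.37 (MT-ND5). With venetoclax, 0 of 13 were called, again with 0% of all genes, 0 unadjusted p below 0.05 and 0 calls by DESeq2. All 13 estimates were above 0 (0.05 to 1.08, median 0.47), but for every gene except MT-CO1 one venetoclax library lay below both DMSO libraries and the other above them: MT-CO2 had 738 and 3439 CPM with venetoclax and 947 and 2014 CPM with DMSO. MT-ATP8 had the largest estimate, 1.08, from 22.3 and 125.2 CPM. With AraC, 0 of 13 were called, against 6.69% of all genes, 2 had an unadjusted p below 0.05, and DESeq2 called 0. MT-ND6 had 267.8 and 298.9 CPM with AraC and 196.4 and 231.4 CPM with DMSO, and its log2 fold change of 0.39 ± 0.12 was under 2-fold (adjusted p = 0.0455, and 0.127 with an estimated prior df). The other 12 genes had adjusted p values of at least 0.132, and without control DMSO library 2, 1 gene was called.

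In DMSO, shFOXM1 and control cells did not differ by a called change in any of the 13 genes, where 25.1% of all genes were called. Of the 13, 1 had an unadjusted p below 0.05 and DESeq2 called 0. MT-CO1 had 9088 and 9316 CPM in shFOXM1 cells and 6484 and 7926 CPM in control cells (log2 fold change 0.36 ± 0.13, adjusted p = 0.116). MT-ND4L had the largest estimate, 0.77 ± 0.43, from 290.7 and 344.9 CPM against 112.6 and 262.7 CPM. The 2 shFOXM1 libraries were close together and the 2 control libraries were not, and without control DMSO library 2, 5 of the 13 genes were called higher in shFOXM1 cells.

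Under AraC, 4 genes were called lower in shFOXM1 cells than in control cells, MT-ATP8, MT-ATP6, MT-ND3 and MT-ND2, against 14.0% of all genes called lower. The same number, 4, was called with an estimated prior df, against 14.2% of all genes. MT-ATP6 had 537.7 and 645.8 CPM in control cells and 199.9 and 284.8 CPM in shFOXM1 cells (log2 fold change -1.33 ± 0.17, adjusted p = 6.45e-14, and 0.00257 with an estimated prior df). MT-ATP8 had 40.6 and 58.0 against 15.2 and 23.5 CPM (-1.39 ± 0.24, adjusted p = 2.91e-08, and 0.00805). The groups of neither gene overlapped. MT-ND2 (507 and 651.3 against 202.5 and 361.9 CPM) and MT-ND3 (120.8 and 162.6 against 49.4 and 84.7 CPM), both of complex I, changed by -1.08 ± 0.17 and -1.12 ± 0.21. MT-CO1 had an estimate above 0, 0.15 ± 0.10 (adjusted p = 0.275), and the other 8 lay between -0.90 and -0.48. With the replicate number as a block 4 genes were called, and within the libraries numbered 1 and those numbered 2, 12 of 13 genes were lower in shFOXM1 cells in each. The count was 2 without control AraC library 2 or shFOXM1 AraC library 1, and 9 without shFOXM1 AraC library 2.

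Under venetoclax, MT-ATP8 and MT-ATP6 were called lower in shFOXM1 cells, 2 of 13 genes against 13.5% of all genes called lower. MT-ATP8 had 22.3 and 125.2 CPM in control cells and 14.6 and 28.6 CPM in shFOXM1 cells (-1.77 ± 0.41), and MT-ATP6 had 311.4 and 1512 against 278.8 and 520.9 CPM (-1.19 ± 0.34). Both groups overlapped for both genes, 0 of 13 were called with an estimated prior df, against 12.3% of all genes (adjusted p = 0.121 and 0.242), and 1 with the replicate number as a block. The direction of the other genes turned on one library: without control venetoclax library 2, 7 genes were called higher in shFOXM1 cells, and without control venetoclax library 1, 7 were called lower. Without shFOXM1 venetoclax library 1 the count was 0, and without library 2 it was 4, all lower. Of the libraries numbered 1, 4 of 13 genes were lower in shFOXM1 cells, and of those numbered 2, 12 were.

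Over the 3 treatments together, with treatment as a term in the fit, 1 of 13 genes was called lower in shFOXM1 cells, MT-ATP8 (-1.01 ± 0.18, adjusted p = 2.14e-07, and 0.0399 with an estimated prior df), against 14.7% of all genes by the default fit and 14.9% with an estimated prior df. MT-ATP6 was next, with -0.94 ± 0.14 (adjusted p = 1.29e-10, and 0.0208), just under 2-fold. The remaining 11 genes lay between -0.47 (MT-ND2) and 0.18 (MT-CO1). MT-ATP8 was not called without control AraC library 2, control venetoclax library 2, shFOXM1 AraC library 1 or shFOXM1 venetoclax library 1, and 2 genes were called without control DMSO library 1, control venetoclax library 1 or shFOXM1 DMSO library 1.

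Of the 13 genes, 6 were called lower with AraC than with DMSO in shFOXM1 cells, MT-ND2, MT-ND3, MT-ND4L, MT-ND5, MT-ATP6 and MT-ATP8, where 2.57% of all genes were called lower, and the median over the 13 genes was -0.997 beside 0.03 over all genes. MT-ND4L had 290.7 and 344.9 CPM with DMSO and 79.5 and 174.8 CPM with AraC (-1.39 ± 0.26, adjusted p = 3.1e-06). MT-ND5 had 841 and 895.1 against 278.9 and 588.2 CPM (-1.07 ± 0.25, adjusted p = 0.000259). Both AraC libraries were below both DMSO libraries for 12 of the 13 genes, where 19.6% of all genes tested were separated in this way; MT-CO1 overlapped, with 9088 and 9316 against 7374 and 9249 CPM. With an estimated prior df, 3 genes were called (MT-ATP6, MT-ND2 and MT-ND3), against 1.39% of all genes, and without AraC library 1 or without AraC library 2, 0 genes were called.

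This response was set against that of control cells with an interaction term over 8 libraries. The difference, shFOXM1 minus control, was below 0 for all 13 genes (median -0.91) and was called for 5, MT-ATP8, MT-ND4L, MT-ND2, MT-ND5 and MT-ND3, where 1.19% of all genes were called lower. MT-ATP8 differed by -1.43 ± 0.32 (adjusted p = 0.000424), MT-ND4L by -1.32 ± 0.26 and MT-ND2 by -1.28 ± 0.24. With an estimated prior df, 0 genes were called, against 0.292% of all genes called lower, 5 of the 13 had an unadjusted p below 0.05, and the lowest adjusted p among the 13 was 0.156, that of MT-ATP8; DESeq2 called 1. The count rested on single libraries, with 0 called without control DMSO library 1, control AraC library 2 or shFOXM1 AraC library 1, 1 without control AraC library 1, 9 without control DMSO library 2 and 8 without shFOXM1 AraC library 2. For venetoclax, 0 of 13 genes were called in shFOXM1 cells against DMSO (2.09% of all genes were called, 2 of the 13 had an unadjusted p below 0.05, and DESeq2 called 0), and the interaction was called for MT-ATP8 alone (-1.87 ± 0.44, adjusted p = 0.00727), against 0.261% of all genes called lower. With an estimated prior df that interaction had an adjusted p of 1, and 0% of all genes were called. Of the 13, 5 had an unadjusted p below 0.05 by the default fit and 0 with an estimated prior df, and DESeq2 called 0. It was called without either shFOXM1 DMSO library but lost, with 0 of 13 called, without any one of the other 6.

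Copies of mitochondrial DNA in the nuclear genome are annotated as pseudogenes, and reads can be assigned to them in place of the mitochondrial genes. Of 404 such copies in the table, 124 had counts, and the 5 with the most were MTATP6P1, MTCO1P12, MTND2P28 and MTND1P23 on chromosome 1 and MTND4P12 on chromosome 5. MTATP6P1 took 10.3% to 13.9% of the counts that it and MT-ATP6 had together in the 8 control libraries without MK-2206, 10.2% to 13.7% in the 6 shFOXM1 libraries, and 17.5% and 13.5% after MK-2206. Under AraC it was called lower in shFOXM1 cells (-1.30 ± 0.22, adjusted p = 3.06e-08), as MT-ATP6 was. MTCO1P12 took at most 0.507% beside MT-CO1, and MTND2P28 at most 3.78% beside MT-ND2, in any library.

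MTND1P23 did not follow its mitochondrial gene. It had 199 and 435 counts with DMSO, 291 and 400 with STL427944, 445 and 507 with AraC and 163 and 677 with venetoclax in control cells. After MK-2206 it had 10 and 34 counts, while MT-ND1 rose, and in shFOXM1 cells it had 4 and 4 with DMSO, 2 and 4 with AraC and 0 and 4 with venetoclax. Of the counts on MTND1P23 and MT-ND1 together, the copy took 1.84% to 2.91% in the 8 control libraries without MK-2206, 0.0356% and 0.0278% after MK-2206, and at most 0.0244% in shFOXM1 cells. The highest exact 95% limit in the 6 shFOXM1 libraries was 0.078% and the lowest limit in the 8 control libraries was 1.65%, so the gap is far wider than counting error. The log2 fold change was -2.59 ± 0.38 for MK-2206 against DMSO (adjusted p = 5.09e-11, and 0.0266 with an estimated prior df) and -6.87 ± 0.33 for shFOXM1 over the 3 treatments (adjusted p = 8.28e-95, and 1.69e-10). Both were called, and so was shFOXM1 against control within each treatment (-6.31 to -7.35). These are the same 8 libraries in which CD34 had 0 to 18 counts, and whether they hold the same cells as the other 8 was not tested.

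MTND4P12 also took a smaller share in the MK-2206 and shFOXM1 libraries, but its own level was called in opposite directions by the default fit. It took 0.259% to 0.533% of the counts that it and MT-ND4 had together in the 8 control libraries without MK-2206, 0.126% and 0.113% after MK-2206, and 0.0599% to 0.140% in shFOXM1 cells. After MK-2206 its level was called higher than with DMSO (5.28 and 17.7 against 4.06 and 7.25 CPM, 1.11 ± 0.35, adjusted p = 0.00413, and 0.215 with an estimated prior df). The groups overlapped, and without MK-2206 library 2 the log2 fold change of MTND4P12 was -0.0623. MTND1P23 was called lower in this comparison, and MT-ND4 was higher by 2.76. Over the 3 treatments MTND4P12 was called lower in shFOXM1 cells (-1.77 ± 0.28, adjusted p = 2.1e-09), while MT-ND4 was at 0.01 ± 0.13.

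The reference sequences of MTND1P23 and of its counterpart in MT-ND1 are shown to make plain how little separates reads of one from reads of the other. The copy lies at chr1:629062-629433 and matches the end of MT-ND1: after 22 bases that precede the matching stretch, 350 bases differ from the mitochondrial sequence at 2 positions (99.4% identity). The first 300 bases of each are given from hg38, plus strand, with capitals where the pair differs (chr1:629062-629361 and chrM:3892-4191):
MTND1P23: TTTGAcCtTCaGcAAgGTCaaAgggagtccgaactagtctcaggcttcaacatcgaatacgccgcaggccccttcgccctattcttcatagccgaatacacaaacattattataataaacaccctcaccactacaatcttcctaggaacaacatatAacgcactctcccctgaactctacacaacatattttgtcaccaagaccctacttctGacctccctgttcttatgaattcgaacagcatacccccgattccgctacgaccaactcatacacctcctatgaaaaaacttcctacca
MT-ND1: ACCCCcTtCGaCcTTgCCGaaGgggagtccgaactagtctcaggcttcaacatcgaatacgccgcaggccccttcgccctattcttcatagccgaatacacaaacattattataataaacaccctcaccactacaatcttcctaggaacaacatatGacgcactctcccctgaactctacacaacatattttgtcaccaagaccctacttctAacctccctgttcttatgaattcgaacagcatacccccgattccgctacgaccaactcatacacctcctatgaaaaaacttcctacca
A read inside the matching stretch that covers neither of the 2 differing positions cannot be placed on one of the pair, and reads were assigned by the sequence of the reference, not by that of the KG-1 mitochondrial genome, which was not examined here.

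**Figure D5:**
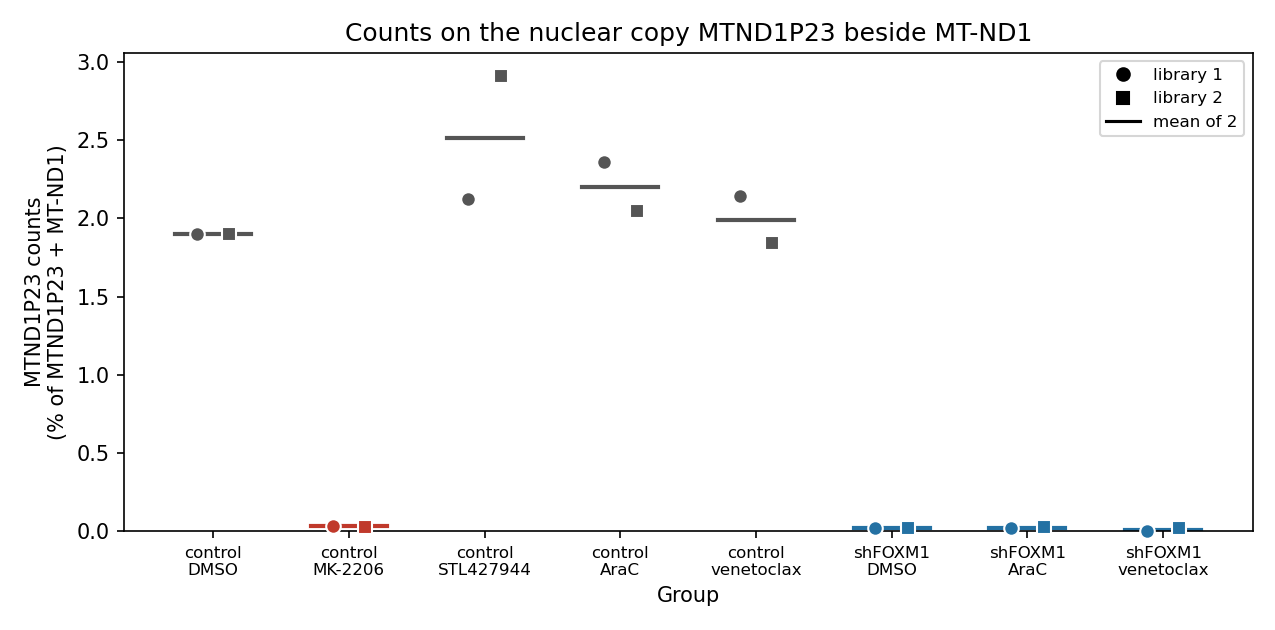
Counts on MTND1P23 as a share (%) of the counts on MTND1P23 and MT-ND1 together, in each library by group, with the mean of the 2 libraries as a bar. The 8 control libraries without MK-2206 lie at 1.84% to 2.91%, and the MK-2206 and shFOXM1 libraries at 0.0356% or less.

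A list of 44 nuclear genes for the copying of mitochondrial DNA and the making, cutting and turnover of its RNA was read beside the 13 genes. After MK-2206, where the estimates of the 13 genes were all above 0, 6 of 44 were called higher and 13 lower, against 26.0% and 17.9% of all genes. The median was -0.42 beside 1.03 over all genes. These values over all genes take in every gene with a count, also those with few. Genes with a count numbered 19266 and 19353 with DMSO and 21430 and 24957 after MK-2206. How far this sets the list apart from all genes was not tested. With an estimated prior df 5 were called higher and 13 lower, against 28.0% and 17.3% of all genes. Of the factors that start transcription, TFAM, which also packs mitochondrial DNA, was called lower (111.5 and 118.3 CPM with DMSO against 35.4 and 44.6 CPM, -1.45 ± 0.28, adjusted p = 1.36e-06). POLRMT had -0.91 ± 0.28 (adjusted p = 0.00333, under 2-fold) and TFB2M 0.41 ± 0.29 (adjusted p = 0.253). SLIRP, which with LRPPRC stabilizes mitochondrial messages, was called lower (-1.29 ± 0.33), and LRPPRC had -0.77 ± 0.25, under 2-fold. FASTK, a mitochondrial RNA-binding protein needed for MT-ND6, rose most among genes with 10 or more counts in every library, from 17.4 and 14.8 to 210.5 and 115.7 CPM (3.40 ± 0.30), followed by POLG, the mitochondrial DNA polymerase (2.17 ± 0.26). MTERF3, a repressor of mitochondrial transcription (60.0 and 59.8 against 4.28 and 8.55 CPM, -3.13 ± 0.33), and PRORP, the nuclease that cuts the 5′ ends of transfer RNAs (-2.54 ± 0.38), fell most.

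In shFOXM1 cells over the 3 treatments, 7 of 44 were called higher, near the 13.5% of all genes called higher, and 2 lower, against 14.7% of all genes, with a median of 0.33 beside 0.12 over all genes. FASTK (9.32 to 20.4 CPM in the 8 control libraries without MK-2206, 39.7 to 74.8 CPM in the 6 shFOXM1 libraries, 1.83 ± 0.19) and TOP1MT, the mitochondrial topoisomerase (1.79 ± 0.18), rose most, and PRORP (-1.63 ± 0.22) and MTERF3 (-1.30 ± 0.18) fell. Both genes that fell are those that fell most after MK-2206. POLRMT (-0.19 ± 0.16), TFAM (0.07 ± 0.15), TFB2M (0.42 ± 0.18), LRPPRC (0.59 ± 0.14) and SLIRP (-0.41 ± 0.20) were not called. Within single treatments, 6 of 44 rose and 2 fell with DMSO (11.3% and 13.7% of all genes), 4 rose and 5 fell under AraC (15.2% and 14.0%), and 10 of 43 rose and 2 fell under venetoclax (10.8% and 13.5%). PTCD1, which has been linked to the processing of mitochondrial RNA, was among those that rose most with DMSO (1.68) and under AraC (1.57). With AraC in shFOXM1 cells, 3 of the 44 were called lower and 0 higher, against 2.57% and 9.03% of all genes, with a median of -0.48 and the same 3 lower calls with an estimated prior df: POLG2, the accessory subunit of the DNA polymerase (-1.26 ± 0.29), TWNK, the helicase (-1.08 ± 0.28), and REXO2, an RNA exonuclease (-1.07 ± 0.30), which was also the gene of the list called in the AraC interaction (-1.08, adjusted p = 0.03, and 0.141 with an estimated prior df). In control cells AraC lowered 1, against 2.17% of all genes, NRF1, a nuclear transcription factor for respiratory chain genes (-1.10 ± 0.17, adjusted p = 0.000344), STL427944 and venetoclax changed 0 of 43 (edgeR's lowest adjusted p = 0.929 and 1), and venetoclax changed 0 of 44 in shFOXM1 cells (lowest adjusted p = 0.687). PPARGC1A, a coactivator of mitochondrial gene programs, had 0 to 6 counts in any library. It is 1 of the genes counted as higher with MK-2206, in shFOXM1 cells under AraC and over the 3 treatments, and its call with MK-2206 was lost with an estimated prior df.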

How the data were processed

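RNA was measured in 16 KG-1 libraries in 8 groups of 2. Per the labels and the study's methods, total RNA was depleted of ribosomal RNA, made into stranded libraries (the labels and the methods name different kits) and aligned to hg38 with STAR, and the authors deposited whole-number counts per gene from featureCounts, without normalization. Whether the molecular identifiers of the kit were used is not given in the sources used here, so the counts are taken as reads. With library totals of 7351755 to 21362546 counts, counting error on the mitochondrial share was small beside the spread between libraries.

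Gene symbols and positions are from GENCODE release 44 (43177 of 43836 IDs matched), and sequences were read from hg38. The members and gene lists were chosen with earlier results of these data known. All MT- genes were named, with POLRMT, TFAM, TFB2M, LRPPRC, SLIRP and PPARGC1A, the 2 called genes of the list of 44 that rose most and the 2 that fell most per comparison (minimum 10 counts per library compared), the 5 nuclear copies with the most counts, and FOXM1; CD34 and REXO2 under AraC were named after their values were seen.

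Counts were scaled by TMM and tested with edgeR 4.0.16 (glmQLFit, glmQLFTest, prior count 0.125) in R 4.3.3 and adjusted by Benjamini-Hochberg, leaving out genes without a count. The 9 pairwise comparisons used 4 libraries each, the comparison over 3 treatments used 12 with treatment as a term, and the 2 interactions used 8. Comparisons with DMSO in control cells share its 2 libraries. A gene was called at a fold of 2 or more and an adjusted p below 0.1. The standard error is the size of the log2 fold change over the root of F. Where the prior df is infinite, it leaves out a gene's own spread over libraries. CPM use one TMM scaling over all 16 libraries. The fit was run on simulated data, but how it performs at the spread seen between these libraries was not tested.

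Alternatives were DESeq2 1.42.0, total counts only, DESeq2's size factors, scaling without the MT genes, filterByExpr, all 16 libraries in one fit, no 2-fold minimum, each library left out, and the replicate number as a block. glmQLFit with legacy = FALSE, which estimates a finite prior df (1.77 to 8.12), was added after seeing the data. Replicate numbers come from the titles of the MK-2206, AraC and venetoclax libraries. Same-numbered libraries deviated together from their group means (r from 0.296 to 0.480 in 10 pairs of groups, across 14888 genes). Library 2 was also the deeper one in all 5 of these groups, so pairing and depth cannot be told apart. The main fits used no block. Libraries of a group differed by more than sampling noise (chi-square per degree of freedom 8.58 to 103.3). Figures were drawn with matplotlib 3.10.9 in Python 3.11.15.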

Additional observations from a re-analysis of the deposited data

Results flagged for a closer look

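The responses of shFOXM1 and control cells to a drug differed by the interaction test for some of the 13 genes and for a pair of nuclear copies, on the log2 scale and as shFOXM1 minus control. For AraC these were MT-ATP8 (-1.43), MT-ND4L (-1.32), MT-ND2 (-1.28), MT-ND5 (-1.26) and MT-ND3 (-1.22). The copies MTND2P28 and MTND4P12 differed in the same comparison by -1.80 and -1.96. In the shFOXM1 AraC libraries MTND2P28 had 63 and 262 counts, far apart, and MTND4P12 had only 9 and 23. For venetoclax it was MT-ATP8 (-1.87). With an estimated prior df none of these 8 differences was called (adjusted p of 0.156 to 1), and the cause of the differences was not tested.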

How the results depend on the processing

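Other settings left most counts of called mitochondrial genes within 1.5 times the reported one. With an estimated prior df, a setting in which the spread of each gene has weight, the counts were 8 for MK-2206, 0 for shFOXM1 under venetoclax, 3 for AraC in shFOXM1 cells, and 0 for both interactions. Without the 2-fold minimum they were 1 for AraC in control cells, 12 for shFOXM1 under AraC, 11 for AraC in shFOXM1 cells, 7 over the 3 treatments and 11 for the AraC interaction. With filterByExpr and with DESeq2 the counts were 1 for shFOXM1 under venetoclax, 1 for the AraC interaction and 0 for the venetoclax interaction. Scaling by total counts alone gave 3 for AraC in shFOXM1 cells, and the cause of these differences was not tested. With the replicate number as a block, the count was 4 for shFOXM1 under AraC and 1 under venetoclax. Leaving out 1 library at a time gave 4 to 13 called genes for MK-2206, 0 to 1 for AraC in control cells, 0 to 5 for shFOXM1 in DMSO, 2 to 9 under AraC, 0 to 7 under venetoclax, 0 to 7 for AraC in shFOXM1 cells, 0 to 2 over the 3 treatments, 0 to 9 for the AraC interaction and 0 to 1 for the venetoclax interaction; a lone library was assumed to vary like the other group. The 7 without control venetoclax library 2 were all higher, a reversal. For MK-2206 the log2 fold change then ran from -0.17 to 1.72 for MT-ATP8 and from -0.0623 to 1.69 for MTND4P12, lowest without MK-2206 library 2. For shFOXM1 under venetoclax it ran from -0.81 to 1.06 for MT-ND1, -1.41 to 1.08 for MT-ND2, -1.15 to 1.18 for MT-CO2, -1.93 to 0.36 for MT-ATP6, -1.33 to 1.44 for MT-ND3, -0.80 to 1.27 for MT-ND4L, -0.80 to 1.38 for MT-ND4, -1.42 to 1.31 for MT-ND5 and -2.09 to 0.0285 for MTATP6P1, highest without control venetoclax library 2. The mitochondrial share of protein-coding counts was 2.15% in shFOXM1 cells with DMSO. A share without the 2 MT ribosomal RNA genes has no value of its own, since those genes were not analysed here. Low counts do not limit the 13 genes, each with at least 212 counts per library. They do limit MTND1P23 (0 to 4 counts) and MTND4P12 (9 to 64 counts) in shFOXM1 cells.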
